A study of Rattus norvegicus with 24 samples.

Results

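Synaptic vesicle and regulated exocytosis genes were followed in rat PC12 cells as 36 genes taken by symbol. The count files list 17055 genes, and the 36 were chosen with earlier results of these data known. Of the 36 genes 35 had a row in the files, 34 had a count in some library and 31 had enough counts to be among the 9994 genes tested. PC12 is a line from a rat pheochromocytoma, a tumour of the chromaffin cells of the adrenal medulla, which are of neural crest origin and release catecholamines. All cells were PC12 at passages 18 to 20, grown in F-12K medium with horse and fetal bovine serum, and no added agent is named for any group. The control line stably carried pcDNA3 without an insert, and the test line stably expressed α1ACT from pcDNA3, the carboxy-terminal protein that CACNA1A encodes beside its calcium channel subunit and that acts in the nucleus. The sample titles call the control line P and the test line Q11, and the same codes in the file names were read in this way. Whether each line was 1 clone or a pool is not stated. Both lines were labelled 6 h, 24 h, 3 d and 10 d with 3 libraries each, which gives 8 groups (vector 6 h, α1ACT 6 h, and so on) and 24 libraries, and the event from which time was counted is not stated.

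Neurons and chromaffin cells store transmitter in vesicles that fuse with the plasma membrane when calcium rises. SNARE proteins of the vesicle and of the plasma membrane zip together to drive fusion, synaptotagmins sense calcium, complexins clamp and assist the SNARE complex, and priming factors such as the Munc13, RIM and CAPS proteins prepare docked vesicles. Rab3 and Rab27 GTPases with effectors such as rabphilin and granuphilin bring vesicles to the membrane, NSF with its SNAP adaptors takes used SNARE complexes apart, and dynamin recovers membrane by endocytosis. PC12 cells hold both large dense core granules with catecholamine and small synaptic-like vesicles.

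The lines and times below are those of the labels, and the deposited files name another time for 18 of the 24 libraries and also another line for 12 of these, with the same replicate numbers. By the file names the labelled vector 6 h and 3 d groups are vector 6 h and α1ACT 6 h, and the labelled α1ACT 6 h and 3 d groups are vector 24 h and α1ACT 24 h. In the same way the labelled vector 24 h and 10 d groups are vector 3 d and α1ACT 3 d by file name, and the labelled α1ACT 24 h and 10 d groups are vector 10 d and α1ACT 10 d. Each difference between the lines at 1 labelled time is therefore a difference between 2 times within 1 line by the file names. The labelled contrasts of 3 d against 6 h and of 10 d against 24 h within a line become differences between the lines at 6 h, 24 h, 3 d and 10 d by the file names. The 2 groups of such a contrast are called a close pair here, since over all tested genes their mean log2 CPM differed by a root mean square of 0.185 to 0.222, against 0.369 or more for any other 2 groups. Which naming is right cannot be told apart from these genes, so results are given by label with the file-name reading beside them.

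Gene counts per library ranged from 8679560 to 14486248, with a median of 11663500, and 3 counts in a library stood for 0.207 to 0.346 CPM, the usual count unit scaled to a common library size. All CPM values are scaled with TMM factors, log2 fold changes are given ± SE, and a gene is called where edgeR's adjusted p, over all 9994 genes, is below 0.05. Of 8 chromaffin markers (among them Th, Dbh and Chga) 7 had a row and were detected in all 24 libraries, with a summed level of 18602 to 19782 CPM in the lowest group and 26846 to 28513 CPM in the highest. The leukocyte gene Ptprc, the macrophage gene Aif1, the collagen gene Col1a2 and the Schwann cell regulator Sox10 were listed at 0 in all 24 libraries. A set of 4 epithelial genes (Krt8, Krt18, Epcam and Cldn4), all of them detected, did vary between groups. Its summed level was 1529 to 1845 CPM in vector 6 h, 1308 to 1776 in vector 3 d, 961 to 1109 in α1ACT 6 h and 959 to 1202 in α1ACT 3 d. In the groups of 24 h and 10 d it was 524 to 553 and 539 to 555 CPM in vector and 686 to 708 and 718 to 775 CPM in α1ACT. At those times Krt8 and Krt18 were higher in α1ACT, as the sum was, but Epcam and Cldn4 were lower. Group means of Epcam were 190 CPM in vector against 141 in α1ACT at 24 h, and 182 against 141 at 10 d. Those of Cldn4 were 53.9 against 36.4 CPM at 24 h and 61.2 against 43.1 at 10 d. The part of these differences in the results below was not tested. In bulk RNA, fewer cells that express a gene and less of its RNA per cell cannot be told apart.

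**Figure D1:**
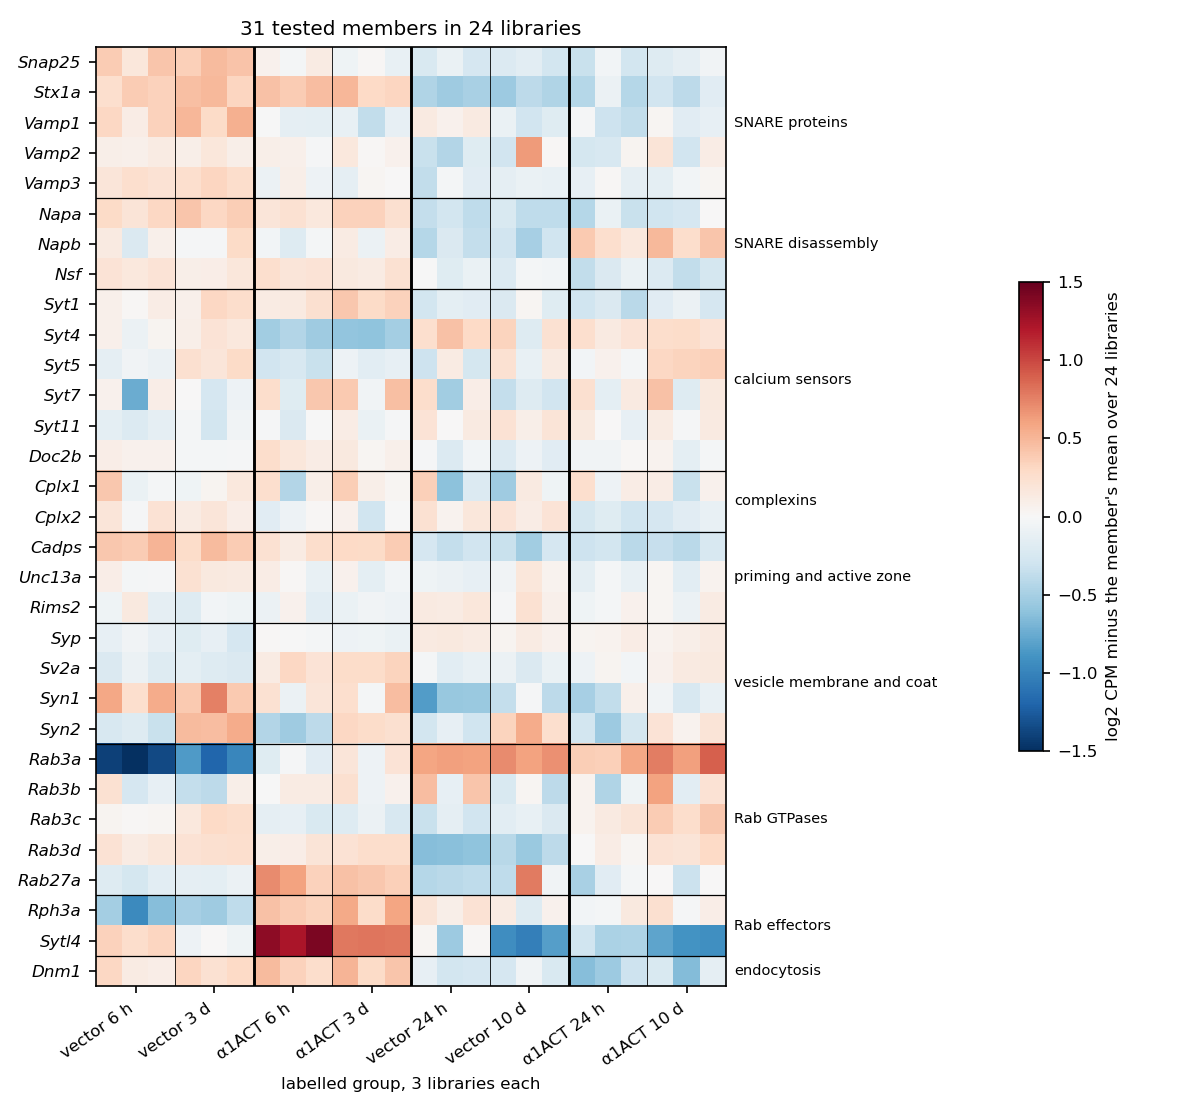
Level of each of the 31 tested genes (rows, grouped by role) in each of the 24 libraries (columns, 3 per labelled group), as log2 CPM minus the gene's own mean over the 24 libraries. The groups that lie side by side between thick lines share a time by file name. Rab3a is lowest in the vector 6 h and 3 d libraries, and Sytl4 is highest in the α1ACT 6 h and 3 d libraries.

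At the labelled 6 h and 3 d, 4 of the 7 tested Rab GTPases and Rab effectors were higher in the α1ACT line and 1, Rab3c, was lower (-0.19 ± 0.06 at 6 h and -0.41 ± 0.06 at 3 d, log2). Rab3b (0.11 ± 0.20 and 0.30 ± 0.20) and Rab3d (-0.04 ± 0.05 and 0.01 ± 0.05) did not pass. The 4 that were higher were Rab3a (by 1.32 ± 0.10 at 6 h and 1.10 ± 0.09 at 3 d, log2), an abundant GTPase of synaptic vesicles, Rab27a (0.77 ± 0.17 and 0.53 ± 0.17), which tethers dense core granules, and the effectors Rph3a (1.07 ± 0.10 and 0.96 ± 0.10) and Sytl4 (1.02 ± 0.09 and 0.84 ± 0.09). Sv2a, a glycoprotein of the vesicle membrane, was higher as well (0.39 ± 0.05 and 0.48 ± 0.05). The plasma membrane SNARE Snap25, the vesicle SNAREs Vamp1 and Vamp3 and the calcium sensor homologue Syt4 were lower at both times. Of 31 genes tested 5 were higher and 7 lower at 6 h, where 20.5% of all tested genes were higher and 21.2% lower. At 3 d 6 were higher and 9 lower, where 19.9% of all tested genes were higher and 19.4% lower. The shares of the 31 were 16.1% and 22.6% at 6 h and 19.4% and 29.0% at 3 d, and the median over the 31 genes was -0.04 at 6 h and 0.01 at 3 d on the log2 scale, against 0.00 and 0.01 over all tested genes. In the file names these 2 contrasts are 24 h against 6 h in the vector line and in the α1ACT line. Leaving out 1 library ended 2 of the 12 calls at 6 h (Rab3c and Syn2) and 5 of the 15 at 3 d (Cplx2, Rab27a, Syn2, Syp and Unc13a). Leaving out all libraries of 1 replicate number ended 6 at 6 h (Cadps, Rab3c, Snap25, Syn2, Vamp1 and Vamp3). At 3 d it ended 6, those 5 and Syt5. Without α1ACT 3 d replicate 2 the 3 d difference of Cplx2 moved from -0.21 to -0.11.

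The promoter sequences of Rab3a, Rph3a and Sytl4 are shown because these genes had the largest differences between the lines at 6 h and 3 d. They are the 250 bases before the annotated start, 5′ to 3′ on the gene's strand, from RefSeq on build GRCr8, whereas the submitters' notes name rn5 for the counts, and the capitals mark GC boxes (GGGCGG, or CCGCCC where the match is on the other strand). They lie at chr16:18722274-18722523 (minus strand), chr12:41203312-41203561 (plus strand) and chrX:101479152-101479401 (minus strand).
Rab3a: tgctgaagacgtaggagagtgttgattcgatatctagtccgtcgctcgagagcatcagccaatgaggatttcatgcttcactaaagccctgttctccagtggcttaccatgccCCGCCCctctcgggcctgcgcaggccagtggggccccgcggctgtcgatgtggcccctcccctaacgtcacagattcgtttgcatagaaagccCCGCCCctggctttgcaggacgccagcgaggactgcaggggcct
Rph3a: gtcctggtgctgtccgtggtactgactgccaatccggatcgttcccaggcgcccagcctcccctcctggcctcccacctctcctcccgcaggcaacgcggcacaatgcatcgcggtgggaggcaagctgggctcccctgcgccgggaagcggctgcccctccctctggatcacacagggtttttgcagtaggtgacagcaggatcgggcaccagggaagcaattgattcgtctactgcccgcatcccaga
Sytl4: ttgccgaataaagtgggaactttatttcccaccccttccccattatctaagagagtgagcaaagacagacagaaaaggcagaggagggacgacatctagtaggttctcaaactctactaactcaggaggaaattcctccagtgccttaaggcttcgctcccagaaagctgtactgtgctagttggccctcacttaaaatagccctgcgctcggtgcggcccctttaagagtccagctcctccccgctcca
Rab3a held 2 GC boxes, and neither Rph3a nor Sytl4 held one in this window. On either strand, 20 of the 30 listed genes with a promoter in the table held a GC box, against 30.5% of 33469 promoters. The cyclic AMP response element TGACGTCA was found in 3 of the 30, Napa, Syn1 and Vamp1, against 1.59% of all promoters. The AP-1 site TGANTCA was found in 1 (6.34% of all), the E-box CACGTG in 3 (5.59%) and the TATA box TATAAA in 0 of 30 (12.9%). The promoters used for comparison were not matched to the listed genes by gene type or expression, so these shares are not a like comparison. Matches were counted separately for each motif, and a match describes letters only.

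Rab3a was measured in the vector line at 16.8, 14.7 and 17.3 CPM at 6 h, 66.7, 67.8 and 67.1 CPM at 24 h, 24.6, 19.4 and 22.4 CPM at 3 d, and 72.3, 67.1 and 71.4 CPM at 10 d. In the α1ACT line the values were 38.9, 43.6 and 39.4 CPM at 6 h, 57.2, 56.6 and 66.2 CPM at 24 h, 50.3, 42.0 and 50.9 CPM at 3 d, and 75.2, 67.9 and 82.6 CPM at 10 d. The 6 vector libraries of 6 h and 3 d lay below the other 18, the 3 α1ACT libraries of 24 h lay just below those of vector, and at 10 d the lines overlapped. Rab3a was 2.50-fold higher in α1ACT at 6 h (adjusted p = 1.56e-10) and 2.15-fold higher at 3 d (adjusted p = 1.45e-09). The differences of -0.16 ± 0.08 at 24 h and 0.10 ± 0.08 at 10 d (log2) did not pass (adjusted p = 0.0964 and 0.314), and the interaction of line and time for this gene did (adjusted p = 1.38e-10). In RefSeq the gene Mpv17l2, at 34.5 to 53.9 CPM over the 24 libraries, overlaps Rab3a, and the strand setting of the counting is not given, so reads of the overlap cannot be assigned with certainty.

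Rph3a encodes rabphilin, which binds Rab3 and Rab27 in their active form. It stood in the vector line at 33.1, 24.3 and 30.2 CPM at 6 h, 53.8, 49.9 and 54.4 CPM at 24 h, 33.3, 32.3 and 36.1 CPM at 3 d, and 51.2, 41.0 and 49.1 CPM at 10 d. The α1ACT line had 63.7, 61.1 and 59.3 CPM at 6 h, 45.6, 46.1 and 52.0 CPM at 24 h, 69.6, 56.7 and 71.0 CPM at 3 d, and 55.5, 46.4 and 50.2 CPM at 10 d. As with Rab3a, the 6 vector libraries of 6 h and 3 d were the lowest of the 24, and at 24 h and 10 d the lines overlapped. The α1ACT level was 2.11-fold higher at 6 h (adjusted p = 8.17e-09) and 1.94-fold higher at 3 d (adjusted p = 4.53e-08), and the interaction passed as well (adjusted p = 2.15e-08).

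Sytl4 encodes granuphilin, a Rab27 effector that docks dense core granules through syntaxin. Its vector libraries had 238, 225 and 233 CPM at 6 h, 191, 129 and 189 CPM at 24 h, 178, 188 and 179 CPM at 3 d, and 98.3, 91.8 and 105 CPM at 10 d. Its α1ACT libraries had 473, 437 and 498 CPM at 6 h, 152, 134 and 136 CPM at 24 h, 324, 327 and 325 CPM at 3 d, and 108, 101 and 99.0 CPM at 10 d. The 3 α1ACT libraries of 6 h were the highest of the 24 and the 3 of 3 d came next. Granuphilin RNA was 2.02-fold higher in α1ACT at 6 h (adjusted p = 1.88e-09) and 1.79-fold at 3 d (adjusted p = 6.56e-08). At 24 h it was lower in α1ACT (-0.27 ± 0.09 on the log2 scale, adjusted p = 0.0134), with libraries that overlapped. That call ended without vector 24 h replicate 1 (adjusted p = 0.120) or 3 (0.115), without α1ACT 24 h replicate 2 (0.0530) or 3 (0.0685), and in a fit of the 6 libraries alone (0.102). The difference was -0.18 without vector 24 h replicate 1 and -0.43 without vector 24 h replicate 2 (adjusted p = 2.13e-06). At 10 d the difference of 0.06 ± 0.10 did not pass (adjusted p = 0.624).

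Rab27a was at 34.9, 33.2 and 35.9 CPM at 6 h, 29.8, 30.2 and 30.7 CPM at 24 h, 36.3, 36 and 37.6 CPM at 3 d, and 30.7, 68.6 and 38.6 CPM at 10 d in the vector line. In the α1ACT line it was at 65.5, 61.0 and 50.6 CPM at 6 h, 28.6, 35.5 and 39.2 CPM at 24 h, 54.3, 53.0 and 51.1 CPM at 3 d, and 40.2, 31.9 and 40.1 CPM at 10 d. At 6 h and at 3 d every α1ACT library was above every vector library of the same time. One library, vector 10 d replicate 2, stood above the other 2 of its group. The difference was 1.71-fold at 6 h (adjusted p = 0.000826) and 1.44-fold at 3 d (adjusted p = 0.0167). The 3 d call ended without vector 3 d replicate 2 (adjusted p = 0.0510).

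**Figure D2:**
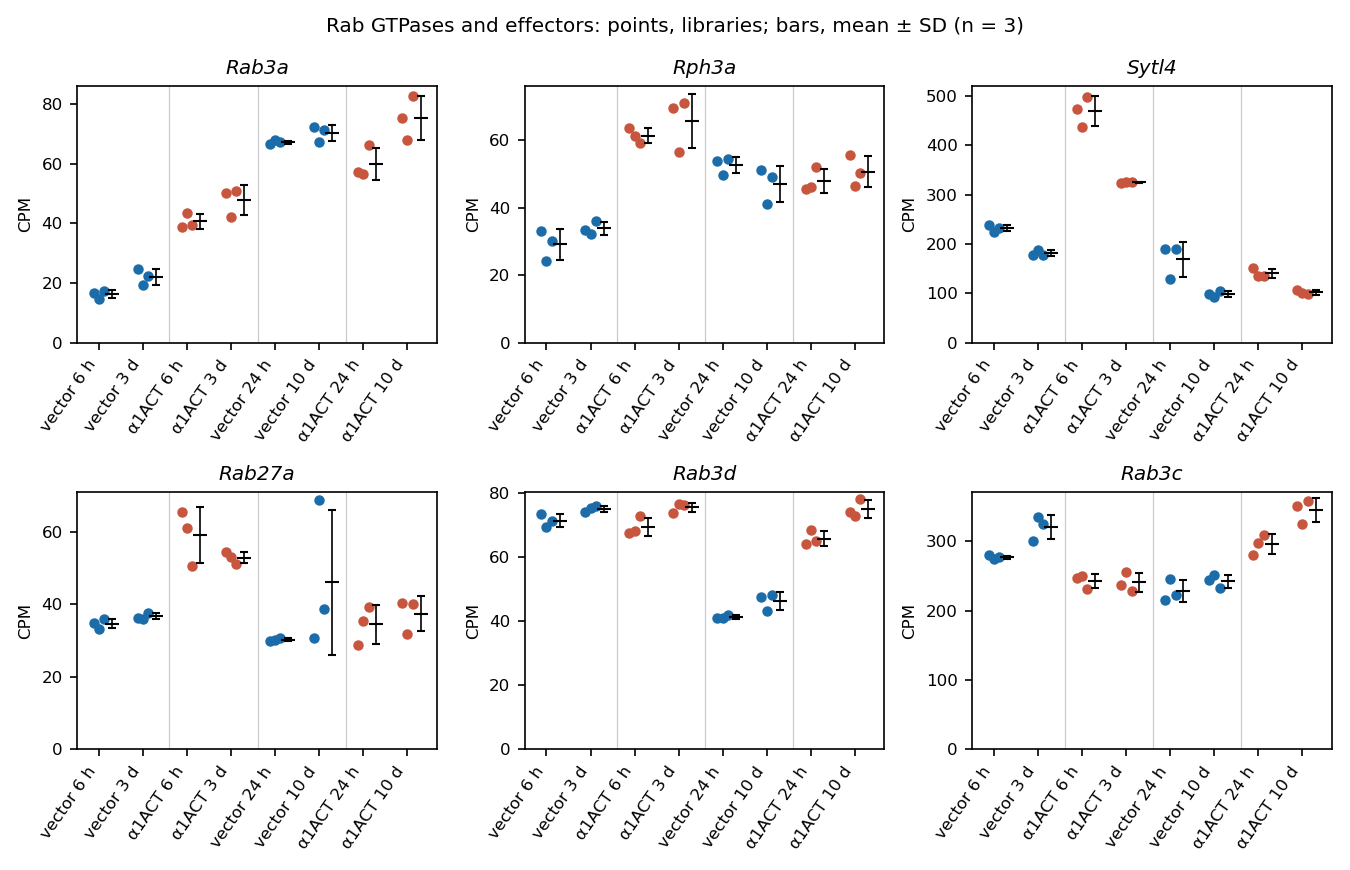
CPM (y axis, from 0) of 4 Rab GTPases and 2 effectors in each library of the 8 labelled groups (x axis), blue for vector and red for α1ACT, with the mean ± SD of 3 libraries in black. Rab3a and Rph3a are lowest in vector 6 h and 3 d, Sytl4 is highest in α1ACT 6 h, and Rab3d is lowest in vector 24 h and 10 d.

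Among the fusion genes that were lower in α1ACT at 6 h and 3 d, Snap25, which gives 2 of the helices of the neuronal SNARE complex, was measured in vector at 1799.7, 1554 and 1842 CPM at 6 h, 1176, 1290.0 and 1161 CPM at 24 h, 1758, 1907 and 1849.5 CPM at 3 d, and 1196, 1236 and 1134 CPM at 10 d. In α1ACT it was at 1439.7, 1349 and 1501 CPM at 6 h, 1090.2, 1338 and 1142 CPM at 24 h, 1318, 1399 and 1271 CPM at 3 d, and 1205, 1256 and 1327 CPM at 10 d. The vector libraries of 6 h and 3 d were all above the α1ACT libraries of the same times. The difference was -0.28 ± 0.07 (log2) at 6 h (adjusted p = 0.00263) and -0.47 ± 0.07 at 3 d (adjusted p = 9.95e-06), and -0.02 ± 0.07 and 0.09 ± 0.07 at 24 h and 10 d, where neither passed (adjusted p = 0.803 and 0.291).

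Vamp1 encodes a vesicle SNARE of the synaptobrevin family. Its levels in vector were 147, 129 and 151 CPM at 6 h, 130.5, 124 and 130.4 CPM at 24 h, 168, 145 and 172 CPM at 3 d, and 111, 97.1 and 105 CPM at 10 d. In α1ACT they were 118, 108 and 107 CPM at 6 h, 117, 95.6 and 92.1 CPM at 24 h, 109.7, 92.2 and 109 CPM at 3 d, and 122, 106 and 109 CPM at 10 d. At 6 h, 24 h and 3 d the α1ACT libraries lay below the vector libraries, and at 10 d the lines overlapped. Vamp1 was lower, with differences of -0.35 ± 0.09 at 6 h, -0.34 ± 0.09 at 24 h and -0.64 ± 0.09 at 3 d (adjusted p = 0.00181, 0.00168 and 2.17e-06). Vamp3, or cellubrevin, was lower at 6 h and 3 d (-0.24 ± 0.07 and -0.31 ± 0.07).

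Syt4, a synaptotagmin of dense core granules with weak calcium binding, had the most counts of the 36 genes in sum. It was at 2451, 2179.9 and 2392 CPM at 6 h, 2757, 3130.0 and 2845 CPM at 24 h, 2466, 2674 and 2582 CPM at 3 d, and 2917, 2034 and 2707 CPM at 10 d in the vector line. In the α1ACT line it had 1611, 1704 and 1601 CPM at 6 h, 2766, 2538 and 2677 CPM at 24 h, 1539, 1530.0 and 1633 CPM at 3 d, and 2790.3, 2813 and 2666 CPM at 10 d. The 6 α1ACT libraries of 6 h and 3 d were the lowest of the 24. The differences from vector were -0.51 ± 0.08 (adjusted p = 1.98e-05) and -0.72 ± 0.08 (adjusted p = 2.23e-07), and those of -0.13 ± 0.08 at 24 h and 0.11 ± 0.08 at 10 d did not pass (adjusted p = 0.182 and 0.249). Syt5, another granule synaptotagmin, was lower at 3 d (-0.35 ± 0.08) and higher at 10 d (0.24 ± 0.08), and the call at 10 d ended without vector 10 d replicate 2 (adjusted p = 0.106). Syt7, the high-affinity sensor, did not pass at 3 d (0.38 ± 0.20, adjusted p = 0.137) but did with the replicate number as a block (adjusted p = 0.0259).

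At the labelled 24 h and 10 d, 25.8% of the 31 genes differed between the lines at each time, among them Napb, Rab3d, Rab3c and Cplx2 at both. At 24 h 4 were higher in α1ACT and 4 lower, where 26.6% of tested genes were higher and 28.8% lower. At 10 d 5 were higher and 3 lower, where 29.5% were higher and 29.4% lower. Napb (0.60 ± 0.10 and 0.75 ± 0.10, log2), Rab3d (0.67 ± 0.05 and 0.69 ± 0.05) and Rab3c (0.38 ± 0.06 and 0.51 ± 0.06) were higher in α1ACT at both times, and Cplx2, a complexin, was lower (-0.40 ± 0.08 and -0.35 ± 0.08). By the file names these contrasts are 10 d against 3 d within each line. Leaving out 1 library ended 3 of the 8 calls at 24 h (Dnm1, Syn1 and Sytl4) and 3 of the 8 at 10 d (Nsf, Syn2 and Syt5). Leaving out all libraries of 1 replicate number also ended that of Vamp1 at 24 h. The 24 h difference of Syn1 moved from 0.41 to 0.24 without α1ACT 24 h replicate 3. Without vector 10 d replicate 2 the 10 d differences of Syn2 and Syt5 moved from -0.23 to -0.14 and from 0.24 to 0.16. The summed level of the chromaffin markers moved with them, at 20032 to 21259.6 CPM in vector 24 h against 24439 to 28481 CPM in α1ACT 24 h, and 18602 to 19782 against 26846 to 28513 CPM at 10 d, and its part in the result was not tested.

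Napb encodes beta-SNAP, the neuronal adaptor that brings NSF to SNARE complexes. Vector libraries had 49.1, 38.6 and 47.5 CPM at 6 h, 33.4, 38.6 and 34.9 CPM at 24 h, 44.4, 44.3 and 54.7 CPM at 3 d, and 36.8, 31.9 and 36.3 CPM at 10 d. The α1ACT libraries had 43.4, 39.2 and 44.0 CPM at 6 h, 58.8, 53.4 and 49.9 CPM at 24 h, 48.8, 42.1 and 48.4 CPM at 3 d, and 62.6, 53.8 and 59.8 CPM at 10 d. All α1ACT libraries of 24 h and 10 d were above all vector libraries of those times, by 1.52-fold (adjusted p = 7.91e-06) and 1.68-fold (adjusted p = 3.81e-07). At 6 h and 3 d the differences were -0.09 ± 0.10 and -0.04 ± 0.10 and did not pass.

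Rab3d, a Rab3 isoform of secretory granules, was at 73.6, 69.4 and 71.4 CPM at 6 h, 41.0, 41.1 and 41.9 CPM at 24 h, 74.0, 75.3 and 75.9 CPM at 3 d, and 47.5, 43.2 and 48.3 CPM at 10 d in vector. In α1ACT it was at 67.7, 68.1 and 72.9 CPM at 6 h, 64.1, 68.6 and 65.0 CPM at 24 h, 73.8, 76.5 and 76.4 CPM at 3 d, and 74.1, 72.8 and 78.4 CPM at 10 d. The 6 vector libraries of 24 h and 10 d were the lowest of the 24, and the other groups lay close together. The level in α1ACT was 1.59-fold higher at 24 h (adjusted p = 8.72e-11) and 1.62-fold higher at 10 d (adjusted p = 4.09e-11). Rab3c, a further Rab3 isoform, went the other way at 6 h and 3 d, where it was lower in α1ACT (-0.19 ± 0.06 and -0.41 ± 0.06), and its interaction of line and time passed (adjusted p = 2.73e-10). The 6 h call of Rab3c ended without α1ACT 6 h replicate 3 (adjusted p = 0.0548).

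Several genes of the fusion machinery were lower at the labelled 24 h than at 6 h, and at 10 d than at 3 d, in both lines. Stx1a, Napa, Nsf, Syt1, Cadps, Dnm1 and Sytl4 fell in all 4 of these contrasts, and Rab3a rose in all 4. In vector 5 of the 31 genes were higher and 15 lower at 24 h against 6 h, where 31.6% of all tested genes were higher and 29.9% lower, and 5 higher and 14 lower at 10 d against 3 d (33.2% and 31%). In α1ACT 5 were higher and 12 lower at 24 h against 6 h (21.7% and 22.4%), and 6 higher and 10 lower at 10 d against 3 d (21.8% and 22.8%). The median over the 31 genes was -0.19, -0.17, -0.17 and -0.11 on the log2 scale in that order, against 0.02, 0.02, 0.00 and 0.00 over all tested genes. By the file names these are contrasts of 3 d against 6 h in vector and in α1ACT (labelled vector) and of 10 d against 24 h in vector and in α1ACT (labelled α1ACT). They use libraries that the line differences above use as well. Leaving out 1 library ended 2 of the 20 calls in vector at 24 h (Doc2b and Vamp2), 1 of 19 at 10 d (Rims2), 0 of 17 in α1ACT at 24 h and 1 of 16 at 10 d (Rab27a). Leaving out all libraries of 1 replicate number ended Doc2b, Napb and Vamp2 in vector at 24 h and Rims2 at 10 d. In α1ACT it ended 5 at 24 h (Doc2b, Napb, Rph3a, Snap25 and Syt5) and 5 at 10 d (Napb, Rab27a, Rph3a, Sv2a and Syp). Without vector 24 h replicate 2 the change of Doc2b moved from -0.16 to -0.11. The summed epithelial genes given above also were lower at 24 h and 10 d, as were the group means of Krt8, Krt18 and Epcam. Cldn4 did not follow the sum. Its mean in vector was 50.8 CPM at 6 h and 53.9 at 24 h, and 56.8 at 3 d and 61.2 at 10 d. In α1ACT it was 37.9 CPM at 6 h and 36.4 at 24 h, and 40.9 at 3 d and 43.1 at 10 d. The part of the epithelial genes in these results was not tested.

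**Figure D3:**
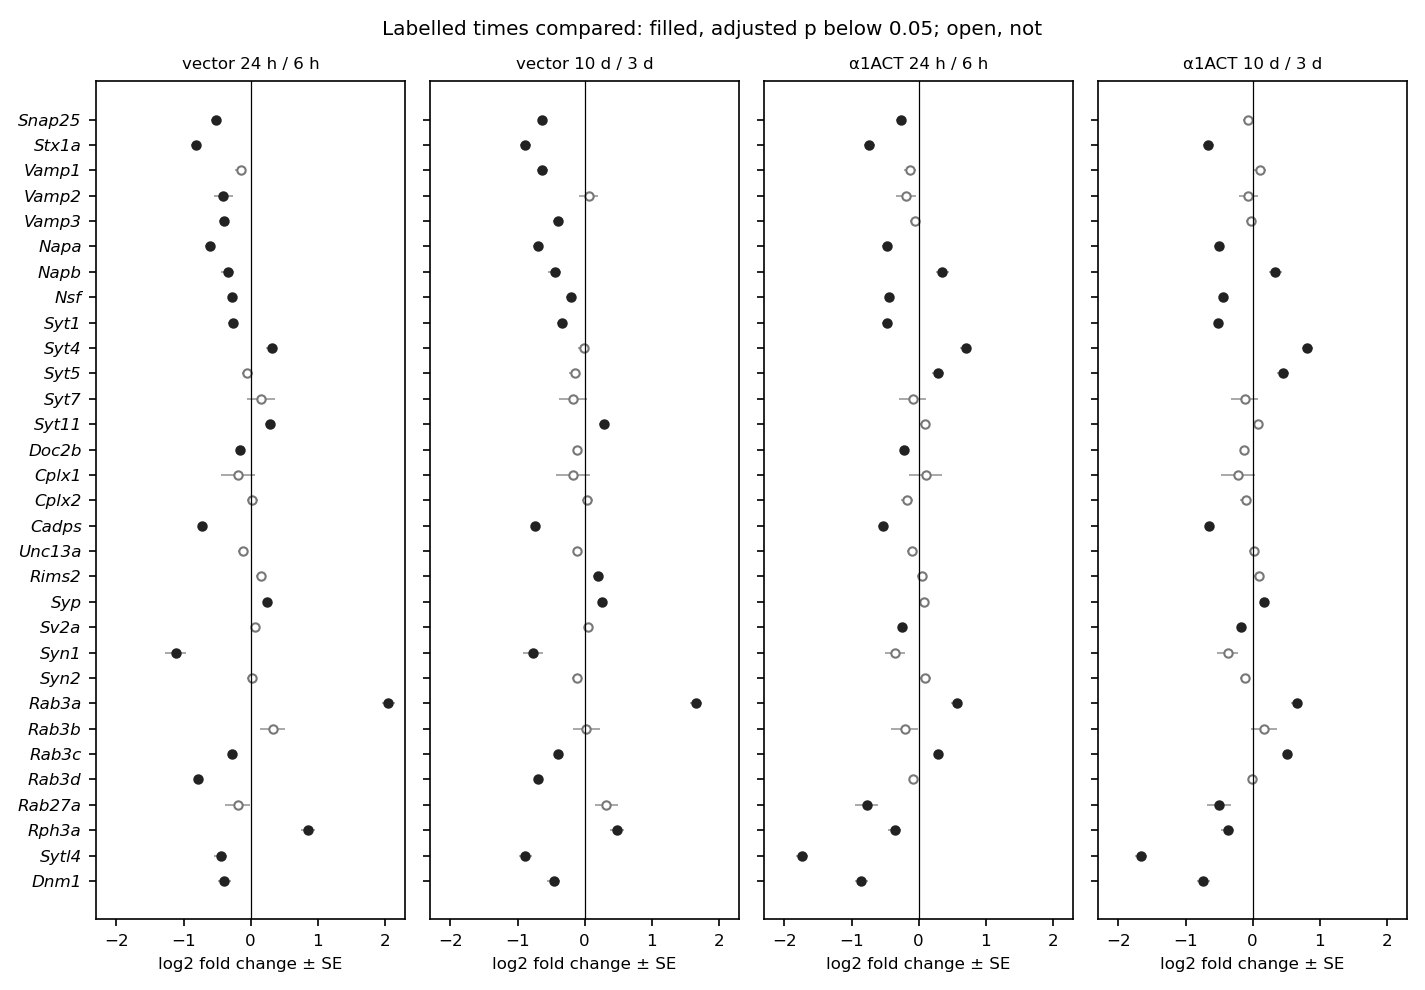
Log2 fold change ± SE (x axis) of the 31 tested genes (rows) between labelled times, 24 h against 6 h and 10 d against 3 d, in the vector and α1ACT lines. Filled points passed an adjusted p of 0.05. Stx1a, Napa, Nsf, Syt1, Cadps, Dnm1 and Sytl4 lie left of 0 and filled in all 4 panels, and Rab3a lies right of 0 and filled in all 4.

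Stx1a encodes syntaxin 1A, the plasma membrane SNARE that pairs with Snap25. It had 58.6, 64.2 and 62.5 CPM at 6 h, 36, 34.1 and 35.3 CPM at 24 h, 67.5, 68.7 and 61.5 CPM at 3 d, and 33.8, 37.5 and 36 CPM at 10 d in vector. In α1ACT it had 66.7, 64.0 and 67.8 CPM at 6 h, 36.7, 46.5 and 36.5 CPM at 24 h, 69.7, 60.5 and 61.4 CPM at 3 d, and 40.3, 37.4 and 43.9 CPM at 10 d. All 12 libraries of 6 h and 3 d were above all 12 of 24 h and 10 d. The change was -0.81 ± 0.08 and -0.88 ± 0.08 (log2) in vector and -0.73 ± 0.08 and -0.66 ± 0.08 in α1ACT, with adjusted p = 2.34e-09, 4.39e-10, 4.75e-08 and 3.52e-07. Snap25 fell with it in vector (-0.52 ± 0.07 and -0.63 ± 0.07) and at 24 h in α1ACT (-0.26 ± 0.07), and its change of -0.07 ± 0.07 at 10 d against 3 d in α1ACT did not pass. Vamp1 fell at 10 d against 3 d in vector (-0.63 ± 0.09).

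Napa encodes alpha-SNAP, the ubiquitous partner of NSF. In vector it was at 132, 124 and 134 CPM at 6 h, 84.2, 89.2 and 83.1 CPM at 24 h, 144, 134 and 139.5 CPM at 3 d, and 92.3, 82.8 and 83.1 CPM at 10 d. In α1ACT it was at 123, 127 and 121 CPM at 6 h, 80.3, 101 and 86.0 CPM at 24 h, 138, 138 and 128 CPM at 3 d, and 87.7, 90.6 and 109 CPM at 10 d. Again every library of 6 h and 3 d was above every library of 24 h and 10 d. Napa fell by 1.52-fold and 1.62-fold in vector and by 1.39-fold and 1.41-fold in α1ACT. Its neuronal relative Napb fell in vector (-0.34 ± 0.10 and -0.44 ± 0.10) and rose in α1ACT (0.35 ± 0.10 and 0.34 ± 0.10), and its interaction of line and time passed (adjusted p = 4.59e-06). The ATPase Nsf fell too, with changes of -0.28 ± 0.06 and -0.21 ± 0.06 in vector and -0.44 ± 0.06 and -0.44 ± 0.06 in α1ACT.

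Cadps encodes CAPS1, a priming factor of dense core granules found through its activity in permeable PC12 cells. Vector libraries stood at 155, 152 and 167 CPM at 6 h, 98.5, 91.6 and 96.5 CPM at 24 h, 142, 163 and 152 CPM at 3 d, and 93.0, 81.7 and 98.8 CPM at 10 d. The α1ACT libraries stood at 137, 128 and 141 CPM at 6 h, 94.8, 96.7 and 88.7 CPM at 24 h, 144, 143 and 152 CPM at 3 d, and 92.7, 88.6 and 99.4 CPM at 10 d. Libraries of 6 h and 3 d did not overlap with those of 24 h and 10 d. The fall was 1.65-fold and 1.67-fold in vector (adjusted p = 4.20e-10 and 2.85e-10) and 1.45-fold and 1.57-fold in α1ACT (adjusted p = 3.20e-07 and 2.12e-08). Among the other priming and active zone genes, Unc13a passed in none of these 4 contrasts, with changes from -0.11 ± 0.07 to 0.02 ± 0.07, and Rims2 rose in vector at 10 d against 3 d (0.20 ± 0.07), a call that ended without vector 3 d replicate 1 (adjusted p = 0.108) or vector 10 d replicate 2 (0.143).

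Dnm1 encodes dynamin 1, the neuronal GTPase that pinches endocytic vesicles from the membrane. Its vector levels were 142, 125 and 123 CPM at 6 h, 106, 94.9 and 96.2 CPM at 24 h, 143, 135 and 141 CPM at 3 d, and 96.6, 110.3 and 97.9 CPM at 10 d. Its α1ACT levels were 159.7, 146 and 138 CPM at 6 h, 73.5, 78.6 and 92.8 CPM at 24 h, 164, 140.4 and 153 CPM at 3 d, and 97.7, 73.0 and 104 CPM at 10 d. The 12 libraries of 6 h and 3 d were all above the 12 of 24 h and 10 d. The change was -0.39 ± 0.10 and -0.46 ± 0.10 in vector and -0.86 ± 0.10 and -0.73 ± 0.10 in α1ACT. Between the lines Dnm1 was lower in α1ACT at 24 h (-0.28 ± 0.10, adjusted p = 0.0197), a call that ended without vector 24 h replicate 1 (0.0910), α1ACT 24 h replicate 1 (0.119) or α1ACT 24 h replicate 2 (0.0640). Leaving out all libraries numbered 1 moved that difference to -0.15.

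Syn1 encodes synapsin I, which ties vesicles to the cytoskeleton. In vector it was at 20.9, 16.7 and 20.7 CPM at 6 h, 7.85, 9.43 and 9.53 CPM at 24 h, 18.5, 23.6 and 18.5 CPM at 3 d, and 10.9, 13.9 and 10.7 CPM at 10 d. In α1ACT it was at 16.4, 13.2 and 15.9 CPM at 6 h, 9.93, 10.8 and 14.7 CPM at 24 h, 16.7, 13.7 and 19.3 CPM at 3 d, and 13.5, 11.9 and 13.0 CPM at 10 d. The vector libraries of 6 h and 3 d lay above those of 24 h and 10 d, and the α1ACT libraries overlapped between times. Syn1 fell in vector (-1.12 ± 0.15 and -0.77 ± 0.15, adjusted p = 7.00e-07 and 6.44e-05), and the changes of -0.35 ± 0.15 and -0.37 ± 0.16 in α1ACT did not pass (adjusted p = 0.0642 and 0.0559). Syn1 overlaps Araf (163 to 194 CPM over the libraries) and Timp1 (0.337 to 1.5 CPM) in RefSeq, with the same limit on strand as for Rab3a.

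**Figure D4:**
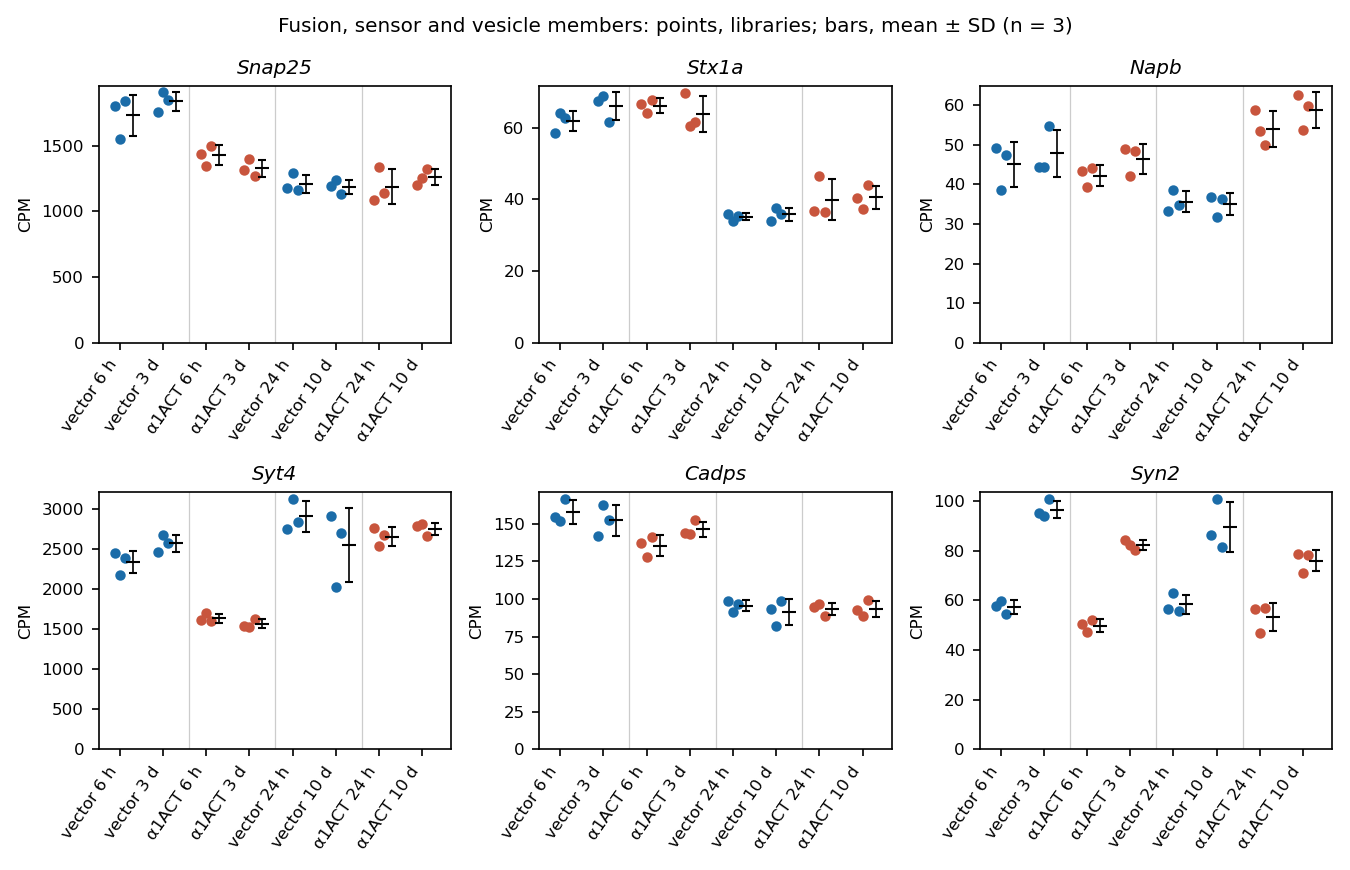
CPM (y axis, from 0) of 6 fusion, sensor and vesicle genes in each library of the 8 labelled groups (x axis), blue for vector and red for α1ACT, with the mean ± SD of 3 libraries in black. Stx1a and Cadps are higher in the 4 groups of 6 h and 3 d than in the 4 of 24 h and 10 d, Syt4 is lowest in α1ACT 6 h and 3 d, and Syn2 is higher in the second group of each close pair.

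The Rab pathway changed between these times as well. Rab3a rose 4.14-fold and 3.17-fold in vector (adjusted p = 3.32e-15 and 4.56e-14) and 1.48-fold and 1.57-fold in α1ACT (adjusted p = 7.56e-06 and 7.23e-07). Rph3a rose in vector (0.86 ± 0.10 and 0.48 ± 0.10) and fell in α1ACT (-0.36 ± 0.10 and -0.37 ± 0.10). Rab3d fell in vector (-0.79 ± 0.05 and -0.69 ± 0.05), and in α1ACT its changes of -0.08 ± 0.05 and -0.01 ± 0.05 did not pass. Sytl4 fell in both lines, with changes of -0.45 ± 0.09 and -0.88 ± 0.09 in vector and -1.74 ± 0.09 and -1.67 ± 0.09 in α1ACT. Without vector 24 h replicate 2 the change of Sytl4 in vector 24 h against 6 h was -0.29 (adjusted p = 0.000248). Rab27a fell in α1ACT (-0.78 ± 0.17 and -0.50 ± 0.17), and the call at 10 d against 3 d ended without α1ACT 3 d replicate 1 (adjusted p = 0.0597) or α1ACT 10 d replicate 2 (0.111). Syt4 rose in α1ACT (0.70 ± 0.08 and 0.81 ± 0.08) and at 24 h against 6 h in vector (0.31 ± 0.08, adjusted p = 0.00171), where it was 0.20 without all libraries numbered 2, and its change of -0.01 ± 0.08 at 10 d against 3 d in vector did not pass. The vesicle protein gene Syp rose in vector (0.24 ± 0.04 and 0.27 ± 0.04) and at 10 d against 3 d in α1ACT (0.17 ± 0.04).

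The 4 contrasts within the close pairs of groups, 3 d against 6 h and 10 d against 24 h in each labelled line, changed few genes. Read by file name, they compare α1ACT with vector at 6 h, 24 h, 3 d and 10 d in turn. Syn2, which encodes synapsin II, was higher in all 4, and Sytl4 was lower in all 4. In vector 3 of the 31 genes were higher and 1 lower at 3 d against 6 h, where 1.14% of all tested genes were higher and 0.33% lower, and 3 higher and 2 lower at 10 d against 24 h (4.29% and 3.15%). In α1ACT 1 was higher and 1 lower at 3 d against 6 h (0.8% and 0.26%), and 5 higher and 1 lower at 10 d against 24 h (2.21% and 2.41%).

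Syn2 was at 57.7, 59.8 and 54.4 CPM at 6 h, 56.6, 62.9 and 55.6 CPM at 24 h, 95.1, 94.0 and 101 CPM at 3 d, and 86.2, 101 and 81.6 CPM at 10 d in vector. In α1ACT it was at 50.4, 47.1 and 52.0 CPM at 6 h, 56.3, 46.8 and 56.7 CPM at 24 h, 84.5, 82.4 and 80.5 CPM at 3 d, and 78.8, 71.1 and 78.3 CPM at 10 d. In each labelled line the 3 d libraries were all above the 6 h libraries and the 10 d libraries all above the 24 h libraries. The change was 0.75 ± 0.08 in vector 3 d against 6 h and 0.73 ± 0.08 in α1ACT (adjusted p = 3.95e-06 and 6.47e-06). For 10 d against 24 h it was 0.62 ± 0.07 in vector and 0.51 ± 0.08 in α1ACT (adjusted p = 1.75e-05 and 0.000984). These 4 contrasts use different libraries, and leaving out any 1 library ended none of the 4 calls. Leaving out all libraries numbered 1 ended the last of them (adjusted p = 0.191). The differences between the labelled lines at 1 time lay between -0.23 ± 0.08 and -0.13 ± 0.08. In RefSeq Timp4, listed at 0 in all 24 libraries, overlaps Syn2.

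The promoter of Syn2 is shown in the same way as above because this gene was higher in all 4 contrasts of the close pairs. It lies at chr4:149858669-149858918 on build GRCr8 (plus strand), and the capitals mark its 3 GC boxes.
Syn2: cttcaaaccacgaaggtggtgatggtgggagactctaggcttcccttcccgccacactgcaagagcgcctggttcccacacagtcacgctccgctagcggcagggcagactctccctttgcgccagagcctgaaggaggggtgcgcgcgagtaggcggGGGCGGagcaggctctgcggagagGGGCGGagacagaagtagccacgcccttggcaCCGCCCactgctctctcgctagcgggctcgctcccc

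The change of Sytl4 was -0.36 ± 0.09 in vector 3 d against 6 h and -0.53 ± 0.09 in α1ACT (adjusted p = 0.0415 and 0.00147). For 10 d against 24 h it was -0.79 ± 0.09 in vector and -0.46 ± 0.10 in α1ACT (adjusted p = 1.70e-05 and 0.0108). The vector call at 3 d ended without any of vector 6 h replicates 1, 2 and 3 (adjusted p = 0.143, 0.0963 and 0.108) or vector 3 d replicates 1 and 3 (0.195 and 0.208), and with library sizes in place of TMM factors (0.0603). The α1ACT call at 10 d ended without α1ACT 24 h replicate 1 (0.0507) or α1ACT 10 d replicate 3 (0.0704). The α1ACT call at 3 d ended when all libraries of 1 replicate number were left out.

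Rab3a was higher in vector 3 d against 6 h (0.45 ± 0.11, adjusted p = 0.0323) and in α1ACT 10 d against 24 h (0.32 ± 0.08, adjusted p = 0.0258), and Syt5 was higher in the same contrasts (0.33 ± 0.08 and 0.33 ± 0.08). The first call of Rab3a ended without vector 6 h replicate 1 (adjusted p = 0.0829) or 2 (0.184) or vector 3 d replicate 1 (0.243) or 3 (0.137). The second ended without α1ACT 24 h replicate 1 (0.102) or 2 (0.159) or α1ACT 10 d replicate 1 (0.0952) or 3 (0.198). Both ended in a fit of the 6 libraries alone (0.0523 and 0.104). For Syt5 leaving out any 1 of 5 libraries in vector gave adjusted p = 0.0956 to 0.208, and any 1 of 4 in α1ACT gave 0.0636 to 0.11. The libraries were vector 6 h replicates 1, 2 and 3 with vector 3 d replicates 1 and 3, and α1ACT 24 h replicates 1 and 2 with α1ACT 10 d replicates 1 and 3.

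A further pair of genes was higher in vector 10 d than in vector 24 h, with 1 library of vector 10 d far above the rest. Rab27a changed by 0.60 ± 0.17 (adjusted p = 0.0348) and the vesicle SNARE Vamp2 by 0.48 ± 0.14 (adjusted p = 0.0395). Vamp2 was at 53.1, 101 and 65.5 CPM in vector 10 d and at 51.5, 47.8 and 57.2 CPM in vector 24 h. In both genes vector 10 d replicate 2 was the highest of its group, and without it the changes were 0.20 and 0.18 and the adjusted p was 0.443 for Rab27a and 0.444 for Vamp2. Both calls also ended without any 1 of the 3 vector 24 h libraries (adjusted p = 0.0591 to 0.118 for Rab27a and 0.0684 to 0.130 for Vamp2). Vamp1 was lower in this contrast (-0.30 ± 0.09), a call that ended without vector 24 h replicate 1 or 3 or vector 10 d replicate 2 or 3 (adjusted p = 0.0685 to 0.166). In α1ACT 10 d against 24 h Rab3c (0.22 ± 0.06) and Rab3d (0.19 ± 0.05) were higher. The call of Rab3c ended without α1ACT 24 h replicate 1 or 2 or α1ACT 10 d replicate 1 or 3 (adjusted p = 0.102 to 0.144), and that of Rab3d without any of the 6 libraries but α1ACT 10 d replicate 2 (0.0757 to 0.212).

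**Figure D5:**
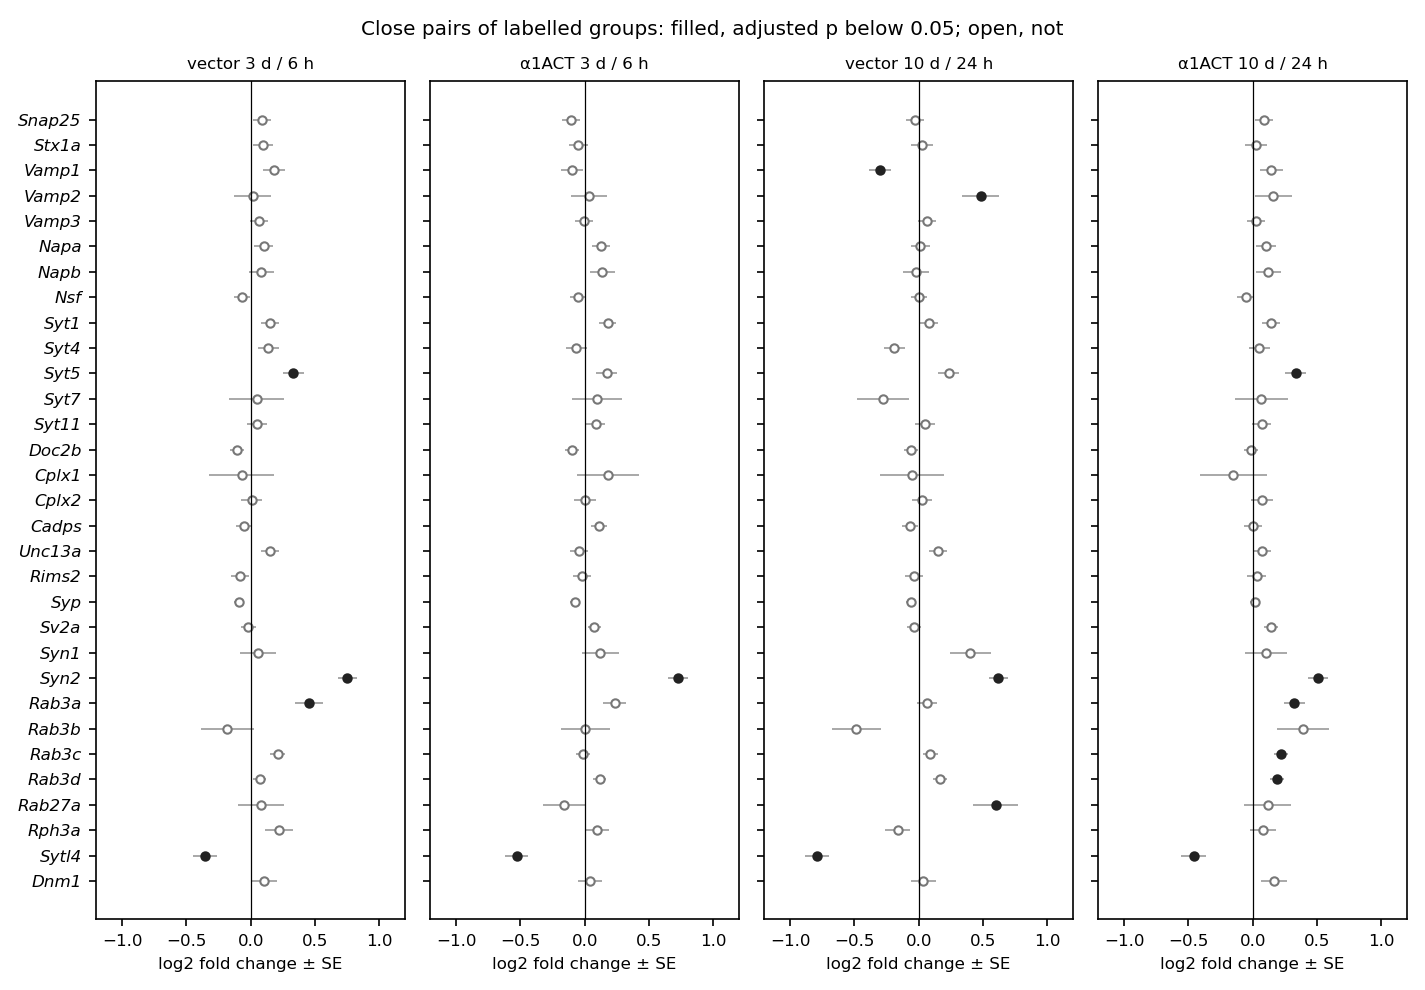
Log2 fold change ± SE (x axis) of the 31 tested genes (rows) within the close pairs of labelled groups, 3 d against 6 h and 10 d against 24 h in each labelled line. Filled points passed an adjusted p of 0.05, and by the file names each panel compares the lines at 1 time. Syn2 lies right of 0 and Sytl4 left of 0, both filled, in all 4 panels.

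Over both labelled lines, 6 genes were higher and 1 lower at 3 d and 10 d than at 6 h and 24 h, where 8.25% of all tested genes were higher and 7.37% lower. They were Syn2 (0.65 ± 0.04), Syt5 (0.27 ± 0.04), Rab3a (0.27 ± 0.05), Syt1 (0.14 ± 0.03), Rab3d (0.14 ± 0.03) and Rab3c (0.13 ± 0.03), and Sytl4, which was lower (-0.53 ± 0.05). Under the file names this is the average difference of α1ACT from vector. The calls of Rab3a, Rab3c, Rab3d and Syt1 ended when all libraries of 1 replicate number were left out. The average labelled difference between the lines was higher for 11 genes and lower for 6, where 33.6% and 32.7% of all genes were. The interaction of labelled line and time passed for 17 of the 31 genes, where 57.7% of all genes passed.

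Of the 31 genes tested, Syt7, Cplx1 and Rab3b passed in none of the 12 contrasts of 2 groups by edgeR with these settings. Group means of Syt7 ran from 10.2 to 15 CPM, those of Cplx1, a complexin, from 1.96 to 2.41 CPM and those of Rab3b from 4.92 to 6.87 CPM. Genes with a narrow range of group means were Rims2 (114 to 134 CPM), Unc13a, a Munc13 priming factor (65.2 to 78.1), Syp (722 to 905), Syt11 (79.3 to 99.8) and the calcium sensor Doc2b (329 to 415). Syt1, the main sensor of fast release, ran from 82.7 to 130.1 CPM, Cplx2 from 28.5 to 38.2, Nsf from 81.7 to 115, Vamp3 from 58.4 to 80.3 and Sv2a from 98.3 to 137.

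The other 5 listed genes were not tested. Rims1, a RIM scaffold of the active zone, had 16 counts over the 24 libraries with at most 3 in any library. Sv2b had 128 counts and Sv2c 99, with at most 17 and 12 in a library. Rab27b, the close relative of Rab27a, had 0 counts in all 24 libraries, which allows up to 0.207 to 0.346 CPM in a library by counting error alone. Cadps2, the relative of Cadps, had no row and was not analysed here.

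A wider list of 101 genes of exocytosis and vesicle recycling outside the 36 was read in the same way, and 91 of them had a row and 75 were tested. At 6 h 20 were higher in α1ACT and 11 lower (26.7% and 14.7%), where 20.5% and 21.2% of all tested genes were. The liprin Ppfia4 passed there, and the RIM family gene Rims4 at 3 d, with group means of 0.455 and 1.22 CPM and of 0.331 and 1.06 CPM in vector and α1ACT, too near the floor of 3 counts for the size of the difference to be read. Of the others that passed at 6 h, the largest positive differences were those of the calcium sensor Doc2a (0.96 ± 0.22) and the synaptotagmin Syt12 (0.89 ± 0.24), and the largest negative ones those of the Munc18 isoform Stxbp3 (-0.78 ± 0.08), endophilin A1 or Sh3gl2 (-0.49 ± 0.09) and Rab3gap2, part of a Rab3 regulator (-0.31 ± 0.05). At 3 d 23 were higher and 12 lower (30.7% and 16%, against 19.9% and 19.4% of all tested genes). Rims4 aside, the highest were Doc2a (1.43 ± 0.22) and Syt12 (1.16 ± 0.21), with Stxbp3 (-0.77 ± 0.08), Sh3gl2 (-0.61 ± 0.09) and amphiphysin 2 or Bin1 (-0.28 ± 0.05) lowest. At 24 h 12 were higher and 21 lower (16% and 28%, against 26.6% and 28.8%). Syt12 (0.89 ± 0.21), the vesicle GTPase Rab26 (0.74 ± 0.08) and Doc2a (0.54 ± 0.20) were highest, and the Rab3 exchange factor Madd (-0.93 ± 0.09), tomosyn or Stxbp5 (-0.89 ± 0.08) and the active zone scaffold Bsn (-0.72 ± 0.16) lowest. At 10 d 23 were higher and 18 lower (30.7% and 24%, against 29.5% and 29.4%), with Rab26 (1.04 ± 0.09), Syt12 (0.95 ± 0.20) and amphiphysin or Amph (0.82 ± 0.17) highest and Bsn (-1.16 ± 0.17), Stxbp5 (-0.97 ± 0.08) and Madd (-0.96 ± 0.09) lowest. The median of the 75 genes was 0.10, -0.02, 0.08 and 0.04 on the log2 scale at 6 h, 24 h, 3 d and 10 d, against 0.00, -0.02, 0.01 and 0.01 over all tested genes. Doc2a and Syt12 were low as well, at group means of 1.29 to 4.62 CPM.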

How the data were processed

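Total RNA of 24 PC12 libraries was sequenced after depletion of ribosomal RNA with a stranded kit, per the labels' protocols. The authors deposited 1 table of raw read counts per gene symbol for each library. The submitters' processing notes name FastQC 0.11.2, TopHat2 2.0.10, Picard 1.117, HTSeq 0.5.4p5, edgeR and build rn5, without roles, while neither annotation nor strand setting is stated. Without strand, reads of 2 overlapping genes are not separable. RefSeq on GRCr8 places an overlapping gene on 16 of the 36 genes, and 4 of these overlap a gene of the count tables. The 5 summary lines of each table were left out, and HTSeq's line for reads assigned to no feature made up 47.8% to 52.9% of its sum with gene and ambiguous reads, which can include intronic reads and, with the strand setting not stated, reads on the other strand of a gene.

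Groups were taken from the labels. The labels call the 3 libraries of a group biological replicates, but no label ties each to its own culture, and p-values then reflect only the spread of these samples, which may be technical. Depth was 8679560 to 14486248 gene counts, and the floor of 3 counts covers counting error only. Counts were fitted with edgeR 4.0.16 in R 4.3.3 (TMM factors 0.981 to 1.02, filter by group with minimum count 10 and minimum total 15, 1 coefficient per group, all 24 libraries, 16 residual degrees of freedom, quasi-likelihood F-test, Benjamini-Hochberg adjustment over 9994 genes, threshold 0.05). The script was tested on simulated data. CPM values and log2 fold changes were computed from the deposited counts.

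The 36 genes and the wider list were chosen with earlier results of these data known. Values per library are given for the 15 genes past the threshold in any of the 12 contrasts of 2 groups whose mean reached 2 CPM and whose change reached 1.5-fold. Vamp2 was added after its values were seen. The others are given by ranges and counts, and in the wider list the 3 largest changes per direction and time are named. Alternatives were RLE factors (the method of DESeq2), library sizes alone, no filter, DESeq2 1.42.0, only the groups compared, the replicate number as a block, and leaving out each replicate number or library. Deviations of libraries with the same replicate number correlated at over 0.1 in all 3 pairs only for the line difference at 3 d (0.124, 0.318 and 0.139), so a block is given beside that result where it changes a call.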

Additional observations from a re-analysis of the deposited data

Results flagged for a closer look

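For 17 of the 31 tested genes the difference between the labelled lines depended on the labelled time, by the interaction term of edgeR's quasi-likelihood fit (adjusted over all 9994 genes). This share is close to that of all tested genes, 57.7%. By the file names the term asks whether the contrasts of 24 h with 6 h and of 10 d with 3 d within the 2 lines are all equal. In the Rab pathway the adjusted p was 1.38e-10 for Rab3a, 2.73e-10 for Rab3c, 3.06e-10 for Rab3d, 3.19e-09 for Sytl4, 2.15e-08 for Rph3a, 0.00339 for Rab27a and 0.0386 for Rab3b. Among SNAREs and their disassembly it was 4.59e-06 for Napb, 0.000107 for Snap25, 0.000120 for Vamp1 and 0.00107 for Vamp3. For calcium sensors it was 3.16e-06 for Syt4 and 0.000180 for Syt5. For vesicle and endocytosis genes it was 0.000332 for Sv2a, 0.0109 for Syn1, 0.0131 for Dnm1 and 0.0336 for Syp. Leaving out 1 library ended the calls of Rab3b and Syp only, among these 17 (adjusted p up to 0.121 for Rab3b without vector 24 h replicate 1 and up to 0.130 for Syp without α1ACT 6 h replicate 2). Leaving out all libraries of 1 replicate number ended those of Dnm1, Rab3b, Sv2a, Syn1 and Syp.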

How the results depend on the processing

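No gene called among the 36 changed direction in any alternative. The counts of genes called kept within 1.5 times their value for RLE factors, library sizes alone, no filter on low counts, DESeq2 and the replicate block. Fitting only the groups compared gave 3 genes in vector 10 d against 24 h (5 in the fit of all groups) and 3 in α1ACT 10 d against 24 h (6 in the fit of all groups). Leaving out 1 replicate number or 1 library moved the number called between 7 and 14 for the line difference at 6 h, 5 and 12 at 24 h, and 9 and 16 at 3 d. It moved between 1 and 4 in vector 3 d against 6 h, 1 and 5 in α1ACT 3 d against 6 h, 2 and 8 in vector 10 d against 24 h, 0 and 7 in α1ACT 10 d against 24 h, and 3 and 10 for the later against the earlier times. The 0 came without the libraries numbered 1, where 7 of the genes had an unadjusted p below 0.05 by edgeR. DESeq2 was not run on that subset. Why single libraries move these counts was not tested. With a group reduced to 2 libraries the spread is that of all groups.

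With the replicate block 15 genes were called for the line difference at 6 h (12 without), 9 at 24 h (8), 16 at 3 d (15) and 10 at 10 d (8). Outside the 3 d contrast the numbers did not pair the libraries by the check above. Among 12 contrasts of 2 groups, every library of both groups correlated best with its own number only for the line difference at 3 d and for α1ACT 3 d against 6 h. With 3 libraries per group and depths of 8679560 counts or more, Rims1, Rab27b, Sv2b and Sv2c lie too near the floor for a difference to be read.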
